A study of Homo sapiens with 6 samples.

Results

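The mitochondrial ribosomal protein genes are the protein-coding genes whose symbols start with MRPL or MRPS followed by a number, with no hyphen. In the deposited gene table that rule was met by 78 genes, 49 named for the large subunit and 29 for the small subunit, of 60612 genes in all and 19937 protein-coding ones. The libraries came from HSC-3 cells, a human cell line established from a squamous carcinoma of the mouth. In 3 libraries the cells overexpressed IRF9, and 3 control libraries carried no overexpression label, which the series describes as wild type. The sources used here do not give the vector, the promoter driving IRF9 or any empty-vector treatment of the controls. No label says that replicates were grown as separate cultures, so the p-values cover library-to-library spread that may be technical only.

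Mitochondrial ribosomes translate the few messenger RNAs of the mitochondrial genome, all of which encode subunits of the respiratory chain and the ATP synthase. Their ribosomal RNAs are transcribed inside the organelle, whereas every one of their proteins is encoded in the nucleus, translated in the cytosol and imported. The small subunit binds the messenger RNA and decodes it, and the large subunit forms the peptide bond. IRF9 is a DNA-binding subunit of the interferon-activated complex ISGF3, which recognises the interferon-stimulated response element (ISRE).

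Total counts were 85156099, 69010768 and 79415259 in the 3 IRF9-overexpressing libraries, and 77257645, 74626641 and 61645349 in the 3 control libraries. IRF9 itself had 435.0, 422.9 and 119.7 CPM (counts relative to library size, scaled by TMM) in the IRF9-overexpressing libraries, against 27.6, 25.1 and 44.6 CPM in the control libraries. The log2 fold change of IRF9 was 3.35 (SE 0.41, adjusted p = 4.74e-05). The groups did not overlap, but the third IRF9-overexpressing library was well below the other IRF9-overexpressing libraries. AL136295.5, a gene that overlaps IRF9 in the table, had 421.4 CPM in that library, against 111.5 and 115.7 CPM in the other IRF9-overexpressing libraries and 95.12, 91.9 and 74.5 CPM in the control libraries. Summed over IRF9 and AL136295.5 the levels were 546.5, 538.6 and 541.2 CPM in the IRF9-overexpressing libraries, against 122.8, 117 and 119.1 CPM in the control libraries. On these sums the third IRF9-overexpressing library did not stand apart. The part of read division between the overlapping genes in the low IRF9 value and in the IRF9 log2 fold change was not tested. With counts summed over the locus, which also takes in RNF31, the log2 fold change was 2.14 (adjusted p = 5.71e-17). Counts of ribosomal protein genes are given below also without that library. Of 9 squamous epithelial markers all were detected, 7 were lower and 1 was higher, with summed levels of 12400 to 13200 CPM in IRF9-overexpressing libraries and 21000 to 21700 CPM in control libraries. KRT5, a basal keratin, averaged 3820 ± 96.7 CPM in IRF9-overexpressing libraries and 8545 ± 197 CPM in control libraries (SD, n = 3 each). Among markers of other cell types, KDR had no count, and PTPRC, CD3E, LYZ, COL3A1 and PECAM1 had at most 9 counts in any library. The summed leukocyte markers reached 24.2 to 29.4 CPM in IRF9-overexpressing libraries and 22.9 to 25 CPM in control libraries, nearly all of it CD14. Fibroblast markers summed to 47.4 to 51.7 CPM in IRF9-overexpressing libraries and 75.7 to 80.3 CPM in control libraries, with LUM lower, PDGFRB higher and the other 3 tested markers not called. Endothelial markers summed to 1.53 to 2.85 CPM in IRF9-overexpressing libraries and 0.825 to 1.63 CPM in control libraries, with CDH5 higher and VWF not called. The part of these marker differences in the values of the ribosomal protein genes was not tested. In bulk libraries fewer cells of a type and less RNA per cell cannot be told apart.

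More mitochondrial ribosomal protein genes rose than fell in the IRF9-overexpressing libraries, and every change was small. All 78 genes were tested, and 28 of them rose, 5 fell and 45 missed an adjusted p of 0.05 (edgeR's quasi-likelihood test, Benjamini-Hochberg adjustment over 19034 genes). The genes that rose were 35.9% of the 78, where 19.2% of all tested genes rose. The genes that fell were 6.41% of the 78, where 18.2% of all tested genes fell. In either direction 37.4% of all tested genes were called, so a call alone was common in this comparison. The median log2 fold change of the 78 genes was 0.09, beside 0.00 for all tested genes, and 57 of the 78 estimates were positive. Estimates ran between -0.41 for MRPL33 and 0.58 for MRPL24, and none of the 78 genes reached a 1.5-fold change. Among tested genes between 8.36 and 178 CPM, the range of the 78 genes, 24.8% rose and 24.7% fell. The median size of a called change was 0.27 on the log2 scale for the 78 genes and 0.39 for all tested genes. Without the third IRF9-overexpressing library 21 of the 78 genes rose and 4 fell. Without the first IRF9-overexpressing library the counts were 22 and 8 and the median was 0.06 on the log2 scale, and without the third control library 18 and 3. Scaled by library size alone, 38 of the 78 genes rose and 3 fell, and 64.5% of all calls were higher, beside 51.2% with TMM.

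The libraries can also be read without a model. In 34 of the 78 genes every IRF9-overexpressing library lay above every control library, and in 8 genes every one lay below. These shares were 43.6% and 10.3%, where 25.0% of all tested genes separated upwards and 23.7% downwards. All 33 called genes separated the groups, and 9 further genes did so without passing the test. The lowest count of any of the 78 genes in any library was 508, for MRPL53, which also had the largest standard error. The standard errors of the log2 fold changes ran between 0.04 and 0.13, with a median of 0.06.

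**Figure D1:**
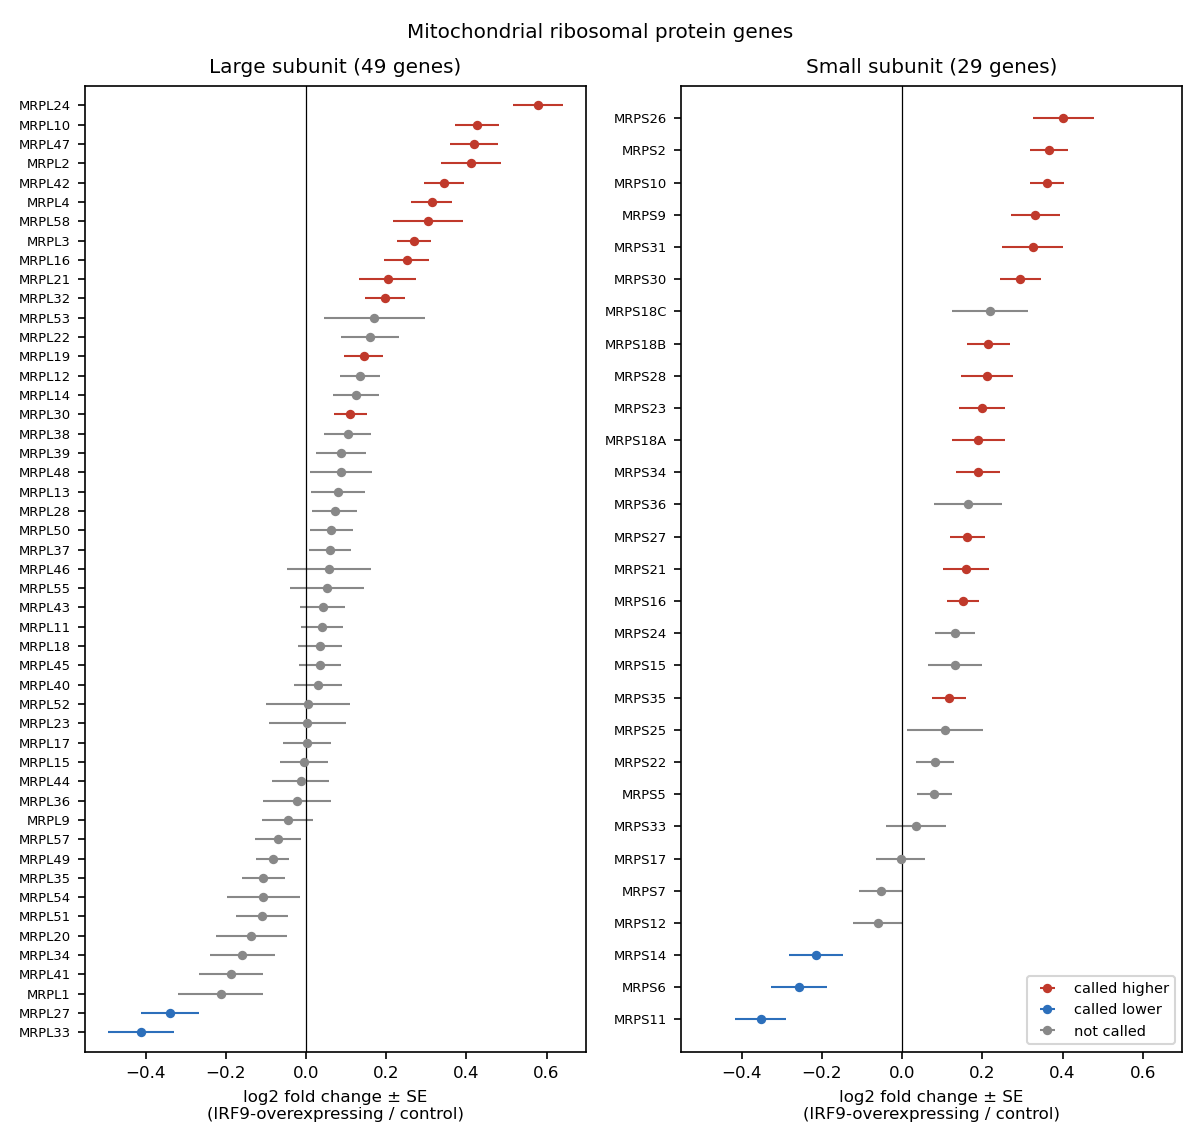
Log2 fold change of each of the 78 mitochondrial ribosomal protein genes, IRF9-overexpressing over control, with its standard error, ordered by size within the large and the small subunit. Genes that rose lie between 0.11 and 0.58, and the 5 genes that fell between -0.41 and -0.21.

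The small subunit held the larger share of genes that rose. Of 29 genes named for the small subunit, 15 (51.7%) rose and 3 (10.3%) fell, with a median log2 fold change of 0.16. Of 49 genes named for the large subunit, 13 (26.5%) rose and 2 (4.08%) fell, with a median of 0.06. No test was made of the difference between these shares. Leaving out the third IRF9-overexpressing library left 11 small-subunit and 10 large-subunit genes that rose. Leaving out the second control library left 9 and 10, and leaving out the third control library 9 and 9, with 1 small-subunit gene that fell. Without the first IRF9-overexpressing library 5 large-subunit genes fell, and the medians were 0.13 for the small and 0.02 for the large subunit. With GC and length offsets the medians were 0.13 for the small and 0.01 for the large subunit. Symbols do not always give the place of a protein: MRPS18A and MRPS30 are built into the large subunit, and MRPS36 is now known as a component of the 2-oxoglutarate dehydrogenase complex. With the proteins placed by structure, 13 of 26 small-subunit genes rose and 3 fell, with a median of 0.14, and 15 of 51 large-subunit genes rose and 2 fell, with a median of 0.06.

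Summed over genes, the small subunit had 1618.4, 1523.8 and 1525.0 CPM in the IRF9-overexpressing libraries, against 1411.0, 1403.2 and 1394.5 CPM in the control libraries. The large subunit had 2275.7, 2148.3 and 2116.4 CPM in the IRF9-overexpressing libraries, against 2059.8, 2017.3 and 2046.4 CPM in the control libraries. Both sums separated the groups, with the first IRF9-overexpressing library the highest in each. The mean sum was 1556 ± 54.3 CPM in IRF9-overexpressing libraries and 1403 ± 8.25 CPM in control libraries for the small subunit, a 1.11-fold difference. For the large subunit it was 2180 ± 84.3 CPM in IRF9-overexpressing libraries and 2041 ± 21.7 CPM in control libraries, a 1.07-fold difference (SD, n = 3 each). The ratio of the small to the large sum was 0.7112, 0.7093 and 0.7206 in the IRF9-overexpressing libraries, and 0.685, 0.6956 and 0.6814 in the control libraries. These ratios did not overlap between the groups.

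**Figure D2:**
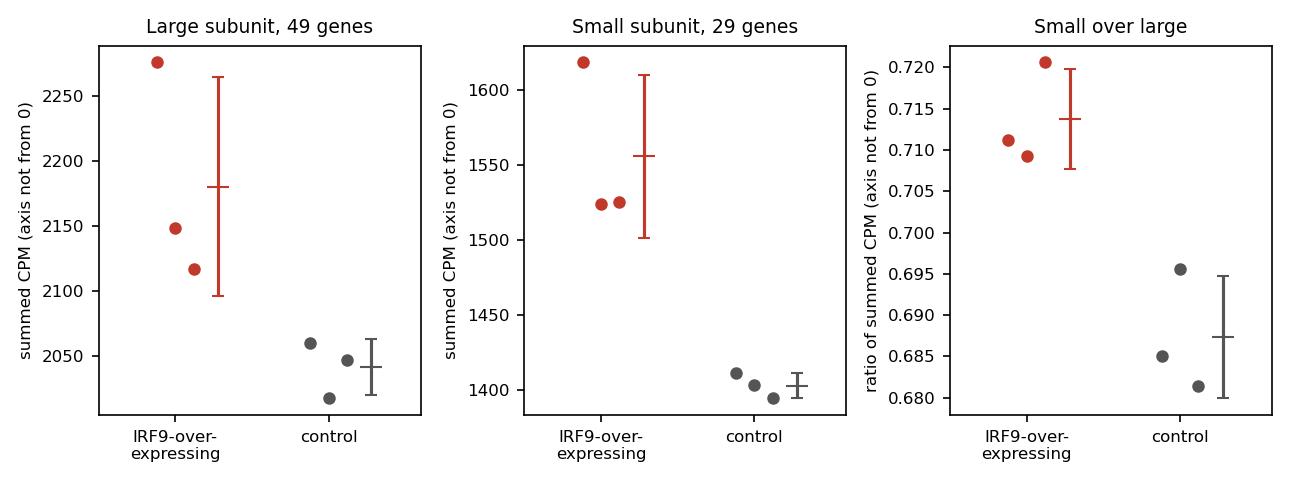
Summed CPM of the large-subunit and small-subunit genes and the ratio of the small to the large sum, one point per library with the group mean and SD, IRF9-overexpressing left of control. The ratio lies between 0.7093 and 0.7206 in IRF9-overexpressing libraries and between 0.6814 and 0.6956 in control libraries.

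MRPL24 had the highest log2 fold change of the 78 genes. It encodes a large-subunit protein near the exit of the peptide tunnel and lies on GRCh38 at chr1:156737303-156741590, minus strand. Its level was 41.7, 37.3 and 37.9 CPM in the IRF9-overexpressing libraries, against 25.6, 26.9 and 25.9 CPM in the control libraries. All IRF9-overexpressing libraries were above all control libraries, and the log2 fold change was 0.58 (SE 0.06, adjusted p = 1.8e-05). MRPL47, another protein of the tunnel exit, had 67.7, 64.3 and 58.3 CPM in the IRF9-overexpressing libraries, against 48.1, 47.4 and 46.9 CPM in the control libraries. The groups were apart, with the third IRF9-overexpressing library lowest in its group, and the log2 fold change was 0.42 (SE 0.06). MRPL10, which anchors the stalk that receives translation factors, had 39.2, 39.6 and 38.4 CPM in the IRF9-overexpressing libraries, against 30.0, 28.0 and 29.3 CPM in the control libraries. Its log2 fold change was 0.43 (SE 0.05, adjusted p = 7.1e-05). MRPL12, the stalk protein that MRPL10 carries, had 59.76 ± 1.91 CPM in IRF9-overexpressing libraries and 54.45 ± 2.12 CPM in control libraries (SD, n = 3 each). Its groups did not overlap, and its log2 fold change of 0.13 had an adjusted p of 0.053.

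Genes were also grouped by place in the ribosome, after the values were seen. Counts in these small groups are a description only, beside 19.2% of all tested genes that rose and 18.2% that fell. In the group taken here as the catalytic core MRPL2, MRPL3, MRPL4 and MRPL16 rose and MRPL27 fell. At the tunnel exit 2 of 6 genes rose, in the stalk 1 of 3 and in the central protuberance 1 of 7, and none of these fell. In the small subunit 1 of 5 platform genes rose and 2 fell, and 4 of 8 head genes rose and 1 fell. MRPL2, which lies beside the peptidyl transferase centre, had 41.1, 37.2 and 35.9 CPM in the IRF9-overexpressing libraries, against 30.7, 25.9 and 29.4 CPM in the control libraries, a log2 fold change of 0.41 (SE 0.08). Its locus joins that of CUL7 on the same strand through a small overlapping gene, and the summed counts gave 0.16 (adjusted p = 0.017). MRPL3, among the most abundant messenger RNAs of the large subunit per length, had 146.7, 143.0 and 135.6 CPM in the IRF9-overexpressing libraries, against 116.4, 117.7 and 119.0 CPM in the control libraries, a log2 fold change of 0.27 (SE 0.04). MRPL4 had a log2 fold change of 0.31 (SE 0.05), which was 0.18 (adjusted p = 0.00425) with GC and length offsets, and MRPL16 one of 0.25 (SE 0.06). MRPL27 went the other way, with 20.3, 20.1 and 19.1 CPM in the IRF9-overexpressing libraries and 27.2, 23.8 and 24.2 CPM in the control libraries. Its log2 fold change was -0.34 (SE 0.07, adjusted p = 0.00261), and again the groups did not overlap.

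MRPL33 had the lowest log2 fold change, -0.41 (SE 0.08, adjusted p = 0.00184). It encodes a short large-subunit protein that has a counterpart in bacteria, and its level was 13.8, 12 and 12.4 CPM in the IRF9-overexpressing libraries, against 17.3, 17.5 and 16.1 CPM in the control libraries. The gene overlaps BABAM2 on the same strand in the table. Summed over both genes the log2 fold change was -0.12 (adjusted p = 0.162). BABAM2 averaged 25.8 CPM and MRPL33 14.9 CPM, so BABAM2 weighs more in that sum. The part of read division between them in this call was not tested. MRPL42, a mitochondria-specific protein, rose, with 73.0, 75.3 and 71.3 CPM in the IRF9-overexpressing libraries, against 54.9, 57.8 and 60.4 CPM in the control libraries and a log2 fold change of 0.34 (SE 0.05). Per length it was the lowest of the large subunit, with 5.92 ± 1.86 FPKM in IRF9-overexpressing libraries and 4.42 ± 0.853 FPKM in control libraries (SD, n = 3 each). On log2(FPKM + 1) with limma the log2 difference was 0.33 with an adjusted p of 0.229, and with GC and length offsets the log2 fold change was 0.52. MRPL58, a peptidyl-tRNA hydrolase built into the central protuberance, had 18.18 ± 1.16 CPM in IRF9-overexpressing libraries and 14.76 ± 1.45 CPM in control libraries, a log2 fold change of 0.30 (SE 0.09, adjusted p = 0.0168). The smallest changes that passed in the large subunit were those of MRPL30 at 0.11, MRPL19 at 0.14, MRPL32 at 0.20 and MRPL21 at 0.20 on the log2 scale. On log2(FPKM + 1) with limma MRPL32 had a log2 difference of 0.05 (adjusted p = 0.483). Leaving out 1 library ended the calls of MRPL58 (the third IRF9-overexpressing, the first control or the third control library, adjusted p 0.0536 to 0.0818), MRPL19 (any but the first IRF9-overexpressing, 0.0652 to 0.155), MRPL21 (any but the second IRF9-overexpressing, 0.0789 to 0.143) and MRPL30 (any but the second IRF9-overexpressing, 0.0543 to 0.18). MRPL36, a small zinc-binding protein, and MRPL44, whose mutations cause a cardiomyopathy, had log2 fold changes of -0.02 (adjusted p = 0.862) and -0.01 (adjusted p = 0.904).

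**Figure D3:**
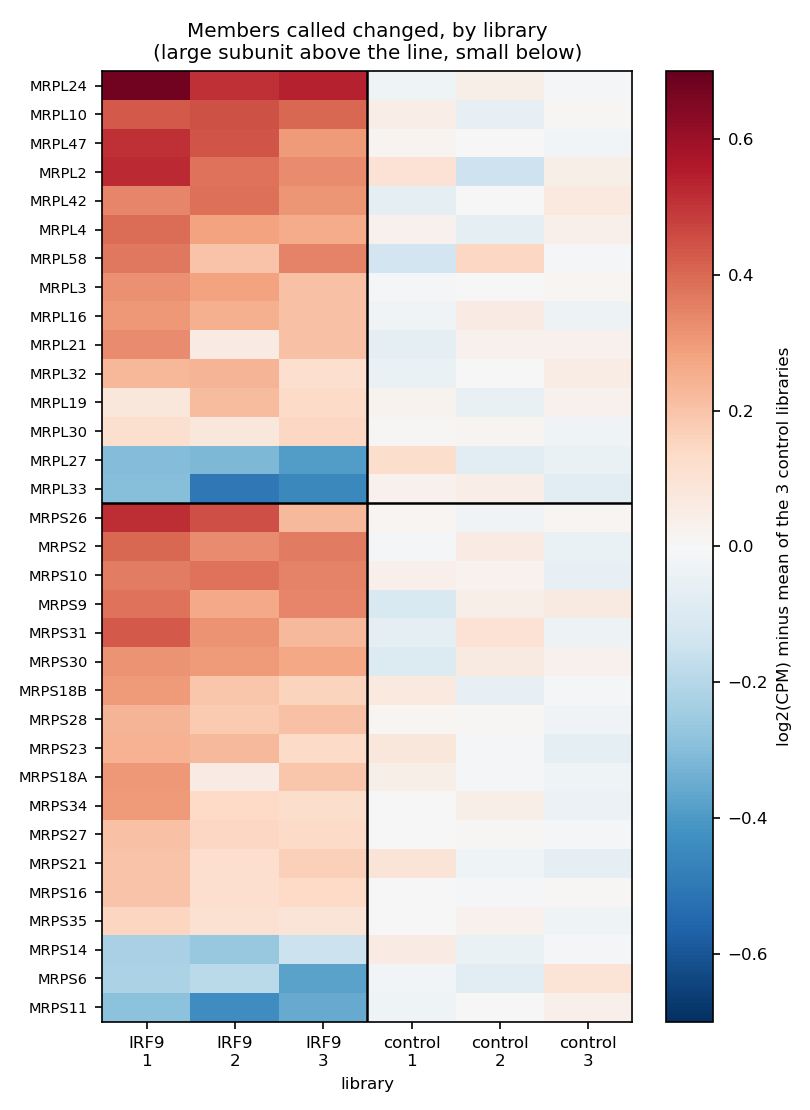
Level in each library relative to the control mean, as a log2 ratio of CPM, for the 33 mitochondrial ribosomal protein genes that passed the test, with the IRF9-overexpressing libraries left of the control libraries. The 28 genes that rose and the 5 that fell separate the groups without overlap.

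In the small subunit MRPS26 had the highest log2 fold change, 0.40 (SE 0.08, adjusted p = 0.0013). This mitochondria-specific protein had 35.6, 34.0 and 29.1 CPM in the IRF9-overexpressing libraries, against 25.1, 24.5 and 25.1 CPM in the control libraries. MRPS2, a protein of bacterial type, had 72.0, 68.4 and 70.1 CPM in the IRF9-overexpressing libraries, against 53.9, 56.7 and 52.8 CPM in the control libraries, a log2 fold change of 0.37 (SE 0.05). Both genes were higher in every IRF9-overexpressing library than in any control library. MRPS10, a protein of the small-subunit head at chr6:42206807-42217861 on the minus strand, had 100.1, 101.5 and 99.3 CPM in the IRF9-overexpressing libraries, against 79.9, 79.2 and 75.0 CPM in the control libraries. Again the groups did not overlap, and its log2 fold change was 0.36 (SE 0.04, adjusted p = 3.8e-05). MRPS9, also of the head, rose by a log2 fold change of 0.33 (SE 0.06). MRPS31 had the same rounded value, 0.33 (SE 0.08), but its pseudogenes reach 48.1% of its own CPM, so reads may be divided between the copies. MRPS30 had 63.0, 62.3 and 61.2 CPM in the IRF9-overexpressing libraries, against 47.5, 52.9 and 51.8 CPM in the control libraries, a log2 fold change of 0.30 (SE 0.05).

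DAP3, a GTP-binding small-subunit protein whose symbol falls outside the rule, averaged 145.2 ± 2.31 CPM in IRF9-overexpressing libraries and 119.6 ± 0.79 CPM in control libraries (SD, n = 3 each), a log2 fold change of 0.28 (SE 0.04, adjusted p = 9.09e-05). The other 4 ribosomal proteins with names of their own did not pass: GADD45GIP1 had a log2 fold change of 0.17 (adjusted p = 0.0517), CHCHD1 one of 0.04, AURKAIP1 one of 0.03 and PTCD3 one of 0.03. Humans carry 3 genes related to that of the bacterial protein S18, and the protein of MRPS18C takes its place in the ribosome. MRPS18B rose by a log2 fold change of 0.22 (SE 0.05), MRPS18A rose by 0.19 (SE 0.07), and MRPS18C had an estimate of 0.22 (SE 0.10, adjusted p = 0.0914). MRPS12, the counterpart of the bacterial decoding-centre protein in which streptomycin resistance arises, had 26.65 ± 1.08 CPM in IRF9-overexpressing libraries and 27.81 ± 1.13 CPM in control libraries and did not pass (adjusted p = 0.495). MRPS36 had an estimate of 0.16 (adjusted p = 0.151). The smallest changes that passed were 0.12 for MRPS35, 0.15 for MRPS16 and 0.16 for MRPS21. Leaving out any of the 6 libraries ended the call of MRPS35 (adjusted p 0.078 to 0.159). Leaving out any but the second IRF9-overexpressing library ended that of MRPS18A (0.0669 to 0.143), and any but the first control library that of MRPS21 (0.0535 to 0.167). MRPS16 lost its call without the second control library (0.0508).

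Of the small subunit 3 genes fell, MRPS11, MRPS6 and MRPS14. MRPS11, a platform protein, had 22.2, 20.0 and 21.2 CPM in the IRF9-overexpressing libraries, against 26.5, 27.0 and 27.7 CPM in the control libraries. The groups were apart, and the log2 fold change was -0.35 (SE 0.06, adjusted p = 9.84e-04). MRPS6, also of the platform, had 26.6, 27.2 and 23.9 CPM in the IRF9-overexpressing libraries, against 30.6, 29.4 and 33.1 CPM in the control libraries, a log2 fold change of -0.26 (SE 0.07, adjusted p = 0.0123). It shares its locus with SLC5A3, which averaged 99.4 CPM beside 28.5 CPM for MRPS6, and the summed counts of both gave -0.41. Without the third IRF9-overexpressing library MRPS6 had an adjusted p of 0.056, and without the third control library one of 0.0612. MRPS14, of the head, had 18.8, 18.3 and 19.8 CPM in the IRF9-overexpressing libraries, against 22.9, 21.3 and 21.8 CPM in the control libraries, a log2 fold change of -0.21 (SE 0.07, adjusted p = 0.025). Leaving out the second IRF9-overexpressing, the first control or the third control library gave MRPS14 adjusted p-values of 0.0759, 0.0972 and 0.057. On log2(FPKM + 1) with limma the log2 differences were -0.16 for MRPS6 (adjusted p = 0.131) and -0.07 for MRPS14 (adjusted p = 0.427).

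Proteins are called mitochondria-specific here when they hold a place in the ribosome that no bacterial ribosomal protein holds, and 31 of the genes encode one. MRPS18A and MRPS18B count among them: they are related to S18 but do not take its place. Of the 31 genes 11 (35.5%) rose and none fell, with a median log2 fold change of 0.09, where 19.2% of all tested genes rose and 18.2% fell. Of 46 genes for proteins of bacterial type 17 (37.0%) rose and 5 (10.9%) fell, with a median of 0.10. Within the small subunit 7 of 10 mitochondria-specific (70.0%) and 6 of 16 bacterial-type genes (37.5%) rose. Within the large subunit 4 of 21 mitochondria-specific (19.0%, near the share of all tested genes) and 11 of 30 bacterial-type genes (36.7%) rose. The order of the shares was thus opposite in the subunits, and no test was made of it.

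Levels per length are given as FPKM, the unit taken for the deposited normalised values. Over the 6 libraries the 78 genes averaged between 5.17 and 223 FPKM, with a median of 23.2. The medians were 23.4 FPKM for the small and 21.8 FPKM for the large subunit. MRPS24 was the highest of all, with 239 ± 16.1 FPKM in IRF9-overexpressing libraries and 207 ± 2.09 FPKM in control libraries (SD, n = 3 each). Its log2 fold change was 0.13 (SE 0.05, adjusted p = 0.0533), and it overlaps the readthrough gene URGCP-MRPS24 in the table. Summed with that gene and URGCP, the log2 fold change was 0.03 (adjusted p = 0.537). Per length MRPL41, MRPL3 and MRPL11 were the most abundant of the large subunit and MRPL22, MRPL1 and MRPL42 the least. The longest annotated transcript of MRPL42 has 15582 bases. In counts MRPL42 averaged 57.69 CPM in control libraries, above the mean large-subunit median of 35.3 CPM there. MRPL41 had 63.8 ± 6.56 FPKM in IRF9-overexpressing libraries and 69.8 ± 5.94 FPKM in control libraries, and MRPL11 had 66.6 ± 3.66 FPKM in IRF9-overexpressing libraries and 63.2 ± 3.97 FPKM in control libraries (SD, n = 3 each). Neither passed the count test, with log2 fold changes of -0.19 (adjusted p = 0.0853) and 0.04 (adjusted p = 0.59). MRPS34 and MRPS15 followed MRPS24 in the small subunit, and MRPS14, MRPS18C and MRPS25 were its lowest.

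**Figure D4:**
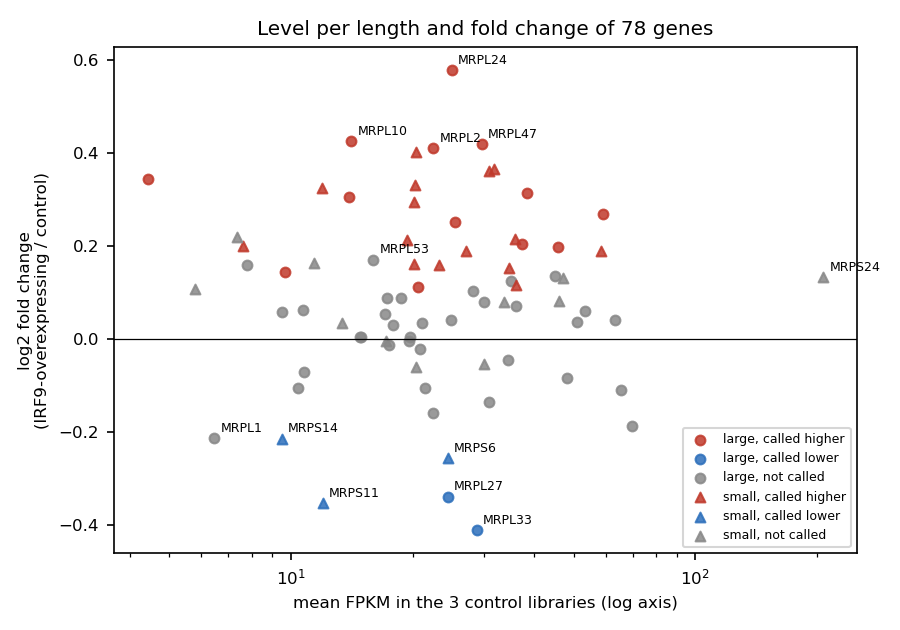
Log2 fold change, IRF9-overexpressing over control, against the mean FPKM of the 3 control libraries on a log axis for the 78 genes, with circles for the large and triangles for the small subunit, coloured by call. Genes that rose occur from MRPL42 at 4.42 FPKM upwards, and MRPS24, at 207 FPKM, did not pass the test.

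Promoter windows are shown for genes at either end of the range, so that the sequence at the start of a gene can be set beside its change. RefSeq windows on GRCh38.p14, running from 250 bases before to 50 bases after the annotated start, matched 69 of the 78 genes by symbol. The RefSeq start lay within 1000 bases of the start in the deposited gene table for 64 of them, with a median distance of 10 bases over all 69. The other windows do not lie at the start of the gene as counted. Nor do some of the 64, such as those of MRPL24, MRPS2 and MRPS11, which lie wholly inside the gene as deposited. The motif counts below take in all 69 windows. Each window was searched on both strands for 6 motifs, which can overlap. These were CCGGAAG (bound by ETS factors such as GABPA), AAGATGGCG (YY1), GCATGCGC (NRF1), CACGTG (the E-box that MYC binds), CCAAT, and TTTCNNTTT (a short ISRE-type motif). In the sequences capitals mark every match to these motifs on either strand. MRPS10, which rose, is read on the minus strand at chr6:42217812-42218111 and holds the ETS and the YY1 motif near its start. MRPL47, which rose, is read on the minus strand at chr3:179604589-179604888 and holds the ETS motif and a pair of CCAAT boxes. MRPL24, which had the highest log2 fold change, is read on the minus strand at chr1:156741039-156741338 and holds none of the 6. This window lies inside the gene as deposited, which starts at base 156741590 on that strand. MRPL33, which fell, is read on the plus strand at chr2:27771469-27771768 and holds the ETS motif.
MRPS10: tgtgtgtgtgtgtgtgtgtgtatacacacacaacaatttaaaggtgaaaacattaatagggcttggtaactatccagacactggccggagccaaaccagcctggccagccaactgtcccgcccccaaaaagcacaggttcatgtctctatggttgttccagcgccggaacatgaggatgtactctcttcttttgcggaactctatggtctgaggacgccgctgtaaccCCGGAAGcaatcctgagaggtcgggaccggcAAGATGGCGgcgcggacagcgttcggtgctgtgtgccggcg
MRPL47: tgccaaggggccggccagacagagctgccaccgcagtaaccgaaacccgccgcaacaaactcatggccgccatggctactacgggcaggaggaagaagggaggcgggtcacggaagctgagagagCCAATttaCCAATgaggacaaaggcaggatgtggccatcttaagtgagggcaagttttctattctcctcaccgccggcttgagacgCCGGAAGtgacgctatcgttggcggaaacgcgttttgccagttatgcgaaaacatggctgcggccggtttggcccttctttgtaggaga
MRPL24: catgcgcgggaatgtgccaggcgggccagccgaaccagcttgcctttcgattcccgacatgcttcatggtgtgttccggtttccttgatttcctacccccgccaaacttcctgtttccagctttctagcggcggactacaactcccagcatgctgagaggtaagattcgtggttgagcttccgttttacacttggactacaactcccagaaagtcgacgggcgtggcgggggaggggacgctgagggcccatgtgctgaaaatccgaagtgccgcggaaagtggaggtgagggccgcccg
MRPL33: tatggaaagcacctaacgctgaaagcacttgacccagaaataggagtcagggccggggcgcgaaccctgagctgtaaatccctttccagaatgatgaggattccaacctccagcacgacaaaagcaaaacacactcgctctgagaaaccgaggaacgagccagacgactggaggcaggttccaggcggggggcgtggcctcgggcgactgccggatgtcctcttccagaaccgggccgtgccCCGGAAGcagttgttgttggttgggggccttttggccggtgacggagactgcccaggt

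The ETS motif was in 29 of the 69 windows (42.0%), beside 10.7% of all 27305 RefSeq windows and 18.0% of the 11154 windows of tested protein-coding genes. It was in 13 of 24 genes that rose, 2 of 5 that fell and 14 of 40 that were not called. The YY1 motif was in 13 of the 69 windows (18.8%), beside 1.85% of all windows and 3.68% of windows of tested protein-coding genes. It was in 6 of 24 genes that rose, none of the 5 that fell and 7 of 40 that were not called. The NRF1 motif was in 6 windows (8.7%, beside 3.27% of all windows and 5.12% of windows of tested protein-coding genes) and the CCAAT box in 20 (29%, beside 35.7% and 36.6%). The E-box was in 6 windows (8.7%, beside 7.43% of all windows and 9.9% of windows of tested protein-coding genes), and all 6 belonged to genes that were not called. The ISRE-type motif was in 8 windows (11.6%), beside 10.6% of all windows and 7.52% of windows of tested protein-coding genes. Of those 8 genes 1 rose, 1 fell and 6 were not called. A match describes letters in the window and is no evidence of binding.

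MRPS11 and MRPL46 are shown because, as deposited, they start 63 bases apart in opposite directions, and their RefSeq windows share 181 bases. MRPS11 is read on the plus strand at chr15:88467458-88467757 and MRPL46 on the minus strand at chr15:88467339-88467638. The MRPS11 window lies inside the gene as deposited, which starts at base 88467453, so no match in it lies before that start. The same pair of ISRE-type matches stands in both windows, and the window of MRPL46 also holds the YY1 motif.
MRPS11: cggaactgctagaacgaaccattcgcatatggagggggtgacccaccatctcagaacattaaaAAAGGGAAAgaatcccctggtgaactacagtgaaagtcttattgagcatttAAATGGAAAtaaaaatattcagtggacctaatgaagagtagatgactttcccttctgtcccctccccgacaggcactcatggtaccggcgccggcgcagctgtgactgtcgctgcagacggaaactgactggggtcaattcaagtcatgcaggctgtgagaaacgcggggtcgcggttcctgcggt
MRPL46: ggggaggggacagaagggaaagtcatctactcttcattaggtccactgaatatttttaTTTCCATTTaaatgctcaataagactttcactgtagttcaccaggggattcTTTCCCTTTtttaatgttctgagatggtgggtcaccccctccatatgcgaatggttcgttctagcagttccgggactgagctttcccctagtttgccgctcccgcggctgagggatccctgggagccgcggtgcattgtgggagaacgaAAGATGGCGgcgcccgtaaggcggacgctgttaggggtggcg

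Across that shared region MRPS11 fell, as given above, whereas MRPL46 had 14.0, 11.4 and 13.5 CPM in the IRF9-overexpressing libraries, against 13.0, 13.5 and 10.9 CPM in the control libraries. The MRPL46 groups overlapped, and its log2 fold change was 0.06 (SE 0.10, adjusted p = 0.708). In all, 27 of the 78 genes start within 1000 bases of a protein-coding gene on the opposite strand, in 28 pairs. MRPS11 and MRPL46 are each other's neighbour, so these pairs count them from both sides. Of 9 pairs whose ribosomal protein gene rose, 6 had a neighbour that was not called, 3 had one that was lower, and none had one that was higher. Where the ribosomal protein gene was not called, the neighbour was higher in 5 pairs, lower in 5 and not called in 7. Where it fell, the neighbour was higher in 1 pair and not called in 1. Of all tested genes 19.2% rose and 18.2% fell, and no test was made of these counts. PPP1R10, next to MRPS18B and encoding a regulator of protein phosphatase 1, averaged 54.71 ± 2.91 CPM in IRF9-overexpressing libraries and 97.34 ± 3.26 CPM in control libraries, a log2 fold change of -0.83 (SE 0.05, adjusted p = 1.27e-07). EME2, next to MRPS34 and encoding a partner of the nuclease MUS81, had a log2 fold change of -0.55 (SE 0.05). The neighbour of MRPL32, AC010132.3, was called lower on 1 control library, with 83.2 CPM there, against 0.266 and 0.0331 CPM in the other control libraries. EME1, which starts 13 bases from MRPL27, rose by a log2 fold change of 0.51 (SE 0.11, adjusted p = 0.00262), opposite to MRPL27. NDUFB5, a complex I subunit that starts 41 bases from MRPL47, had an estimate of -0.07 (adjusted p = 0.24). The sources used here do not state strand use in counting, and 30 of the 78 genes overlap a tested gene on the opposite strand, 13 of the called genes among them. PPP1R10 and EME2 overlap MRPS18B and MRPS34 in this way, and whether their reads were kept apart is not known.

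The genes were spread over 21 chromosomes. Counts by chromosome and by length stand beside 35.9% of the 78 genes that rose and 6.41% that fell. Of all tested genes 19.2% rose and 18.2% fell, and no test was made of these counts. Chromosome 6 held 6 of the 78 genes, of which 4 rose (MRPL2, MRPS10, MRPS18A and MRPS18B). Chromosomes 1, 2 and 17 held 8 each, with 2, 3 and 3 that rose and 1 that fell on each. By length of the longest annotated transcript, 8 of the 26 shortest, 11 of the 26 middle and 9 of the 26 longest genes rose. The Spearman correlation of length with the log2 fold change was -0.01 across the 78 genes, -0.33 across the small-subunit and 0.14 across the large-subunit genes, and -0.13 across 14098 tested protein-coding genes, as a description across genes, which are not independent replicates.

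Counts of the ribosomal RNAs that these proteins bind were also higher. How far such counts follow the amount of ribosomal RNA was not tested. MT-RNR2, the RNA of the large subunit, had 7601, 6936 and 7347 CPM in the IRF9-overexpressing libraries, against 5335, 4996 and 4839 CPM in the control libraries, a log2 fold change of 0.53 (SE 0.04, adjusted p = 9.17e-07). MT-RNR1, the RNA of the small subunit, had 591.4, 538.3 and 559.8 CPM in the IRF9-overexpressing libraries, against 524.3, 499.4 and 471.5 CPM in the control libraries, a log2 fold change of 0.18 (SE 0.05, adjusted p = 0.00848). Neither overlapped between the groups. Of the 13 messenger RNAs of the mitochondrial genome 2 rose (MT-ND1 by 0.26 and MT-ND4 by 0.16 on the log2 scale), 6 fell and 5 did not pass. These shares were 15.4% and 46.2%, beside 19.2% and 18.2% of all tested genes. The log2 fold change was -0.46 for MT-CYB, -0.42 for MT-CO3 and -0.25 for MT-ATP6. The share of counts from the mitochondrial genome was 5.81% to 6.28% in IRF9-overexpressing libraries and 5.79% to 6.29% in control libraries.

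Counts of related lists are given beside the shares of all tested genes, of which 19.2% rose and 18.2% fell. Among tested genes in the CPM range of the 78 genes 24.8% rose and 24.7% fell. Of 28 genes for assembly of the mitochondrial ribosome and modification of its RNA, 9 (32.1%) rose and 2 (7.14%) fell. TFB1M, which methylates the small ribosomal RNA, had 28.7, 24.8 and 28.0 CPM in the IRF9-overexpressing libraries, against 17.3, 18.9 and 18.3 CPM in the control libraries, a log2 fold change of 0.58 (SE 0.08, adjusted p = 7.31e-05). RMND1, which is needed for mitochondrial translation, and C1QBP, a matrix protein that binds RNA, rose by log2 fold changes of 0.52 and 0.31. Of 15 translation factors 5 (33.3%) rose and 1 (6.67%) fell. Those that rose included the elongation factor TUFM at 0.27, the initiation factor MTIF2 at 0.33 and the insertase OXA1L at 0.24. Of 21 genes for mitochondrial transcription and RNA handling 6 (28.6%) rose and 4 (19.0%) fell. The RNA polymerase POLRMT was at 0.32, TBRG4 at 0.22 and HSD17B10, a subunit of the RNase P of mitochondria, at -0.31. Of 20 genes for import and cleavage of precursor proteins 7 rose and 2 fell, with the chaperones HSPA9 at 0.33 and HSPD1 at 0.27, and SPG7, a protease subunit that acts on MRPL32 in mouse, at -0.45.

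Cytosolic ribosomal protein genes moved further and more uniformly. Of 83 tested 71 rose and none fell, with a median log2 fold change of 0.27. Of 79 nuclear genes of the respiratory chain 7 rose and 13 fell, with a median of -0.05. The 78 mitochondrial ribosomal protein genes, with a median of 0.09, thus lay between these lists. Of all tested genes 19.2% rose and 18.2% fell. These lists were described by counts and were not tested against each other.

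**Figure D5:**
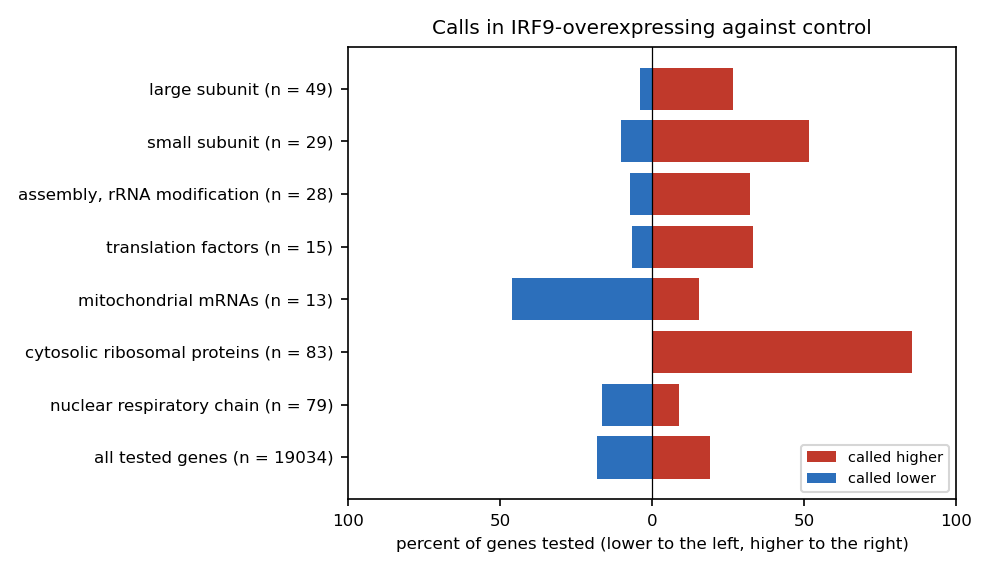
Percentage of tested genes that rose and that fell in the IRF9-overexpressing libraries, for the large and small mitochondrial subunits, related gene lists and all tested genes. Of small-subunit genes 51.7% rose and of large-subunit genes 26.5%, beside 19.2% of all tested genes.

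Of 10 regulators of mitochondrial gene expression 3 (30.0%) rose and 2 (20.0%) fell, beside 19.2% and 18.2% of all tested genes. So short a list does not set regulators apart from other genes. MYC, which drives ribosome production in many growing cells, had 356.5, 343.6 and 350.9 CPM in the IRF9-overexpressing libraries, against 178.0, 184.4 and 178.9 CPM in the control libraries, a log2 fold change of 0.96 (SE 0.04, adjusted p = 1.28e-09). PPARGC1A, a coactivator of mitochondrial biogenesis, had 12.6, 11.8 and 14.2 CPM in the IRF9-overexpressing libraries, against 17.9, 19.2 and 17.8 CPM in the control libraries, a log2 fold change of -0.51 (SE 0.09, adjusted p = 5.59e-04). The nuclear receptor ESRRA rose by 0.19. The subunits of the ETS factor GABP differed in sign, GABPA at -0.20 (adjusted p = 0.0204) and GABPB1 at 0.20 (adjusted p = 0.0434). NRF1, YY1 and TFAM did not pass, with log2 fold changes of 0.06, 0.01 and 0.10.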

How the data were processed

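RNA from HSC-3 cells was extracted with Trizol and made into libraries with a TruSeq RNA kit, per the labels' protocols. Counts per gene are whole numbers that the authors deposited for 60612 genes. The authors also deposited normalised values, taken as FPKM from the values because no header names the unit. Tools named in the submitters' processing notes, without roles, are HISAT2, StringTie, edgeR, Trimmomatic, FastQC and CASAVA 1.8, and the build is GRCh38. The sources used here state neither the annotation release nor strand use.

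Counts were tested with edgeR 4.0.16 (quasi-likelihood, TMM scaling) in R 4.3.3, with group as the model's term over 6 libraries. Genes needed a count of 10 and a total of 15 by filterByExpr, which kept 19034. Calls are Benjamini-Hochberg adjusted p-values under 0.05, with no threshold on fold. A positive log2 fold change means higher in IRF9-overexpressing libraries, and SE comes from the test statistic. CPM and FPKM are mean ± SD, with n = 3 per group. Totals of 61645349 to 85156099 counts per library set the precision, and the biological coefficient of variation was 0.135. The code was tested on simulated data. No pair of libraries within a group agreed within counting noise.

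The genes and lists were chosen with earlier results of these data known. Some listed marker genes are not reported here. Named genes are the 6 highest and 6 lowest called per subunit, the 3 highest and 3 lowest levels per length, a fixed set of 10, the 3 smallest p-values of each further list and called regulators. MRPL16, MRPL46, MRPL53, MRPS17, divergent neighbours and structural groupings were named after their values were seen. Alternatives were DESeq2 1.42.0, limma 3.58.1 (voom, and log2 FPKM with pseudocounts of 1 and 0.1), other scalings and filters, a replicate block, each library left out and overlapping genes summed. The edgeR 3 form of the test and offsets for GC content and length were added after seeing the data. Transcript lengths come from GENCODE, and promoter sequences from RefSeq (GRCh38.p14).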

Additional observations from a re-analysis of the deposited data

How the results depend on the processing

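Over 19 alternatives 17 of the 33 called genes kept their call and direction in each, 15 higher and 2 lower (MRPL27 and MRPS11). The other 16 lost it in at least 1. The cause of each shift below was not tested, except where the construction of the alternative gives it.

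Scaling by library size alone gave a median log2 fold change of 0.07 for all tested genes, beside 0.00, and 64.5% of all calls were then higher, beside 51.2%. Under it the median log2 fold changes were 0.15 for all 78 genes, 0.12 for the large and 0.23 for the small subunit, and 38 genes rose and 3 fell, 1 of them of the small subunit. On log2(FPKM + 1) and log2(FPKM + 0.1) 64.5% and 64.7% of all calls were higher, 31 and 32 genes rose, 3 fell in each, 1 of them of the small subunit, and the large-subunit median was 0.12 and 0.13. With GC and length offsets 8 genes fell, 5 of them of the large subunit, and MRPS34 was at 0.07 (adjusted p = 0.2) and MRPL21 at 0.13 (adjusted p = 0.119). At an adjusted p under 0.01, a stricter threshold, 16 genes rose and 3 fell, among them 7 higher and 1 lower of the small subunit. Summing overlapping genes gives a value per locus, in which a partner with more counts weighs more. The locus of MRPS28 (19.6 CPM), which takes in TPD52 (98.7 CPM), was at -0.0245 (adjusted p = 0.667), beside 0.21 for MRPS28 alone. The locus of MRPS17 (36 CPM) with NIPSNAP2 (113 CPM) was called higher at 0.28, beside -0.0033 for MRPS17 alone. The locus of MRPL53 (10.3 CPM) with CCDC142 (25.4 CPM) was called lower at -0.21 on the log2 scale, beside 0.17 for MRPL53 alone. With DESeq2 26 rose and 5 fell, and with limma-voom 25 rose and 5 fell.

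Leaving out each library in turn gave 18 to 27 genes that rose and 3 to 8 that fell. The small subunit then had 9 to 15 higher and 1 to 3 lower, and the large subunit 9 to 12 higher and 2 to 5 lower. The 18, and 3 lower, came without the third control library, and the 8 without the first IRF9-overexpressing library. The small subunit's 9 higher came without the second or the third control library.

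Same-numbered libraries of the groups did not deviate together (correlations of -0.08, -0.01 and -0.07 over 13628 genes). With 3 libraries a group this gives no sign of pairing but cannot exclude it, and no label states pairing. With the number as a replicate block 30 genes rose and 6 fell, and 7458 of all genes were called, against 7121 without it. The design has 3 libraries a group, and at this spread standard errors of up to 0.13 limit what small changes can show.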
